A study of Mus musculus and Acomys cahirinus with 16 samples.

Results

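The glycolysis and hypoxia response genes followed here are 36 genes taken by symbol. The rule uses no measured value, but the genes were chosen with earlier results of these data known. The members hold 4 transporters of glucose and lactate, 9 genes of the steps from hexokinase to aldolase, and 10 genes of the steps from triose phosphate to lactate. The other members are 4 hypoxia-inducible factors and prolyl hydroxylases and 9 hypoxia response genes. Each symbol was found once among the 56980 genes of the mouse table and once among the 19818 genes of the spiny mouse table, and all 36 passed the filter on low counts in both species. Skin RNA was measured in 2 rodent species, the house mouse (Mus musculus) and a spiny mouse (Acomys cahirinus), either untreated or treated with DMBA/TPA, with 4 samples in each of the 4 groups. DMBA mutates the DNA of skin cells, and the phorbol ester TPA then drives their growth. No genotype, strain, age, skin site, dose or duration is given in the sources used here, and the controls are labelled untreated, not vehicle-treated. Nothing in the labels says that the 4 samples of a group came from separate animals, so p-values measure the spread between these samples only.

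Glycolysis breaks glucose down to pyruvate, and lactate dehydrogenase turns pyruvate into lactate when respiration does not take it up. Several steps have isoforms with a tissue bias: PFKM and PGAM2 are the muscle forms of phosphofructokinase and phosphoglycerate mutase, and LDHB is the lactate dehydrogenase subunit favoured in oxidative tissue. HIF1A and EPAS1 are the oxygen-regulated subunits of the hypoxia-inducible factors. In the presence of oxygen the prolyl hydroxylases EGLN1 and EGLN3 mark them for destruction, a control of the protein that transcript levels do not show. The factors bind short motifs with the core ACGTG or GCGTG, and glucose transporters, glycolytic enzymes, BNIP3, ADM and EGLN3 itself are among their known targets. Epidermis lies far from vessels and is known to run on glycolysis.

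The promoters of 4 members are printed because these genes carry the patterns described below: Slc2a1 and Hif1a rose in both species, Ero1a rose in mouse, and Bnip3 fell in mouse. Each is the 250 bases before the transcription start in RefSeq, build GRCm38.p6, written 5′ to 3′ on the gene's strand. Capitals mark every ACGTG or GCGTG on either strand, so the reverse strand reads CACGT or CACGC, and a CACGTG counts as 2 matches. They lie at chr4:119108495-119108744 (plus strand) for Slc2a1, chr12:73907617-73907866 (plus strand) for Hif1a, chr14:45318573-45318822 (minus strand) for Ero1a and chr7:138909507-138909756 (minus strand) for Bnip3.
Slc2a1: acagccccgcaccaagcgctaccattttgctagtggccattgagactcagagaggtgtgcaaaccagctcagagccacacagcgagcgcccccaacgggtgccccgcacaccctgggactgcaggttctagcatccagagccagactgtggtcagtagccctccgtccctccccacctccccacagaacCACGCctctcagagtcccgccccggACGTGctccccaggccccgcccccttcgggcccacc
Hif1a: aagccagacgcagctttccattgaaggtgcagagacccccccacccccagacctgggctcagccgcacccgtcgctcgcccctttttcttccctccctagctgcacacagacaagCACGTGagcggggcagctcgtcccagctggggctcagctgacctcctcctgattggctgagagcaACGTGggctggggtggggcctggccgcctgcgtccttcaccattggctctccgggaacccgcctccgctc
Ero1a: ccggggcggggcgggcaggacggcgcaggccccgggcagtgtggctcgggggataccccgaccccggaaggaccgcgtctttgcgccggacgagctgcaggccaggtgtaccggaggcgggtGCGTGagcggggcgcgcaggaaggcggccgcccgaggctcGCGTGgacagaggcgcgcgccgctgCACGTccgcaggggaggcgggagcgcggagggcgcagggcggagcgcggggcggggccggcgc
Bnip3: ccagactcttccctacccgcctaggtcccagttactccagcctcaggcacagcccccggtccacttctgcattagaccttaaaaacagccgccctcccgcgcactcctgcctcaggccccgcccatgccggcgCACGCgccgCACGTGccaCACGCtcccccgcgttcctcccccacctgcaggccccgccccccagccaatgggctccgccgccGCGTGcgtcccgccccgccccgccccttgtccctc
The Slc2a1 window holds 2 matches, the Hif1a and Ero1a windows 3 each and the Bnip3 window 5. Of the 36 members, 33 had an entry in this table, all but Slc2a3, Ndrg1 and Epas1, and 30 of the 33 (90.9%) held a match in at least 1 window. Among all the genes listed there, 11226 of 27025 (41.5%) did. A gene with more windows has more room for a match. Counted by window, 38 of 47 windows of members (80.9%) and 12679 of all 32851 windows (38.6%) held one. The windows of the members were richer in G and C, with a median of 62.8% against 52.4% over all windows, and motif counts move with base composition. A match was present in 12 of the 12 members with an entry that rose in mouse, in 8 of the 9 that fell and in 10 of the 12 that were not called. The matches are descriptions of the letters and not of binding, and both a member that rose in mouse (Ero1a) and one that fell (Bnip3) hold them.

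The samples had between 19608787 and 30561256 counts, so that 3 counts correspond to at most 0.153 CPM, counting error only. CPM here means a gene's counts over the library's total after TMM scaling, set to a common total. In both species treated skin had less signal of skeletal muscle: all 14 tested muscle markers fell, and their summed level ranged from 15429 to 22546 CPM in untreated and from 3538 to 4775 CPM in treated mouse skin, against 21618 to 26612 and 7107 to 14670 CPM in spiny mouse skin. Epidermal markers were abundant in all 16 samples, at 9503 CPM or more, and their sums were higher in treated skin. Basal and suprabasal markers summed to 9503 to 17764 CPM in untreated and 22220 to 31568 CPM in treated mouse skin. In spiny mouse skin these sums were 14813 to 19163 and 24646 to 31583 CPM. Of the 9 tested, 4 rose and 2 fell in mouse, and 4 rose and 1 fell in spiny mouse. Markers of thickened epidermis rose in both species (7 of 7 tested in mouse, 6 of 6 in spiny mouse), and so did those of dividing cells (6 of 6 and 5 of 5). Growing hair follicle markers summed to 11.8, 14.3 and 37.6 CPM in 3 untreated mouse samples, to 2131 CPM in untreated mouse replicate 2, and to between 20287 and 21580 CPM in treated mouse skin. In spiny mouse skin they ranged from 1091 to 13841 CPM untreated and from 184 to 3590 CPM treated. In such bulk samples fewer cells of a type and less RNA per cell cannot be told apart.

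In mouse skin 22 of the 36 members were called at an adjusted p under 0.05 (edgeR), beside 61.2% of all genes tested. Of these 12 were higher in treated skin (25.9% of all genes) and 10 were lower (35.3% of all genes). In spiny mouse skin 24 of 36 were called, beside 55.1% of all genes, 14 of them higher (28.2% of all genes) and 10 lower (26.9%). The members' share was therefore near that of all genes in mouse and somewhat above it in spiny mouse, which was not tested. The median log2 fold change of the members was -0.02 in mouse and 0.14 in spiny mouse, against -0.15 and -0.01 over all genes. For 20 members the untreated and treated mouse samples did not overlap (58.6% of all genes), 10 with treated samples higher (26.7%) and 10 with treated samples lower (31.9%). In spiny mouse there were 20 such members (50.9% of all genes), 11 higher (26.7%) and 9 lower (24.1%).

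The same call was made in both species for 17 members, beside 27.7% of the 13667 genes tested in both. Higher in both were Slc2a1, Slc16a1, Pfkp, Pgk1, Pgam1, Eno1, Pkm, Hif1a, Egln3 and Adm (10 members, beside 15.1% of those genes). Lower in both were Pfkm, Pfkfb3, Aldoa, Pgam2, Ldhb, Pdk1 and P4ha2 (7 members, beside 12.6%). Only Slc2a3 of the 36 was called in opposite directions (8.25% of those genes), and 8 members were called in neither species: Gpi1, Tpi1, Gapdh, Epas1, Egln1, Vegfa, Ndrg1 and Ddit4. The split between higher and lower calls in mouse moved with the scaling. Of all called mouse genes 42.4% were higher, against 30.5% (upper-quartile factors) and 28.6% (library size alone), and the members then split into 9 higher and 12 lower, and 9 higher and 13 lower. With DESeq2 size factors 48.4% of the called mouse genes were higher, and the members split into 13 higher and 8 lower. The first pair of scalings moved the median of all mouse genes from -0.15 to -0.35 and -0.38, and DESeq2 size factors moved it to -0.050.

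**Figure D1:**
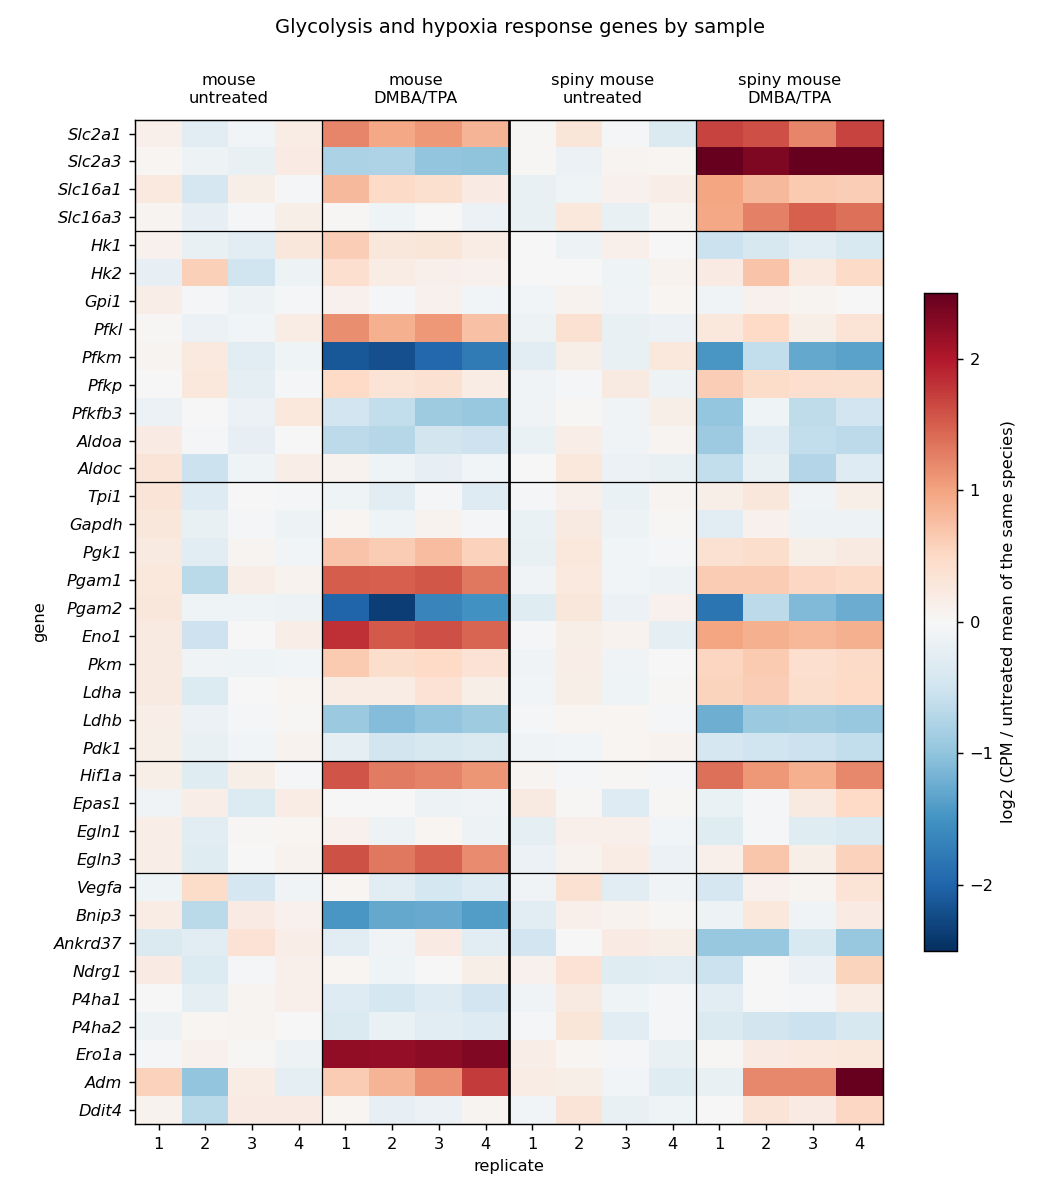
Each row is 1 of the 36 genes and each column 1 of the 16 samples. Colour gives log2 of the CPM over the mean of the 4 untreated samples of the same species, with the scale ending at 2.5 either way, and lines set apart the transporters, the upper and lower steps of glycolysis, the hypoxia-inducible factors with their hydroxylases, and the hypoxia response genes. Slc2a3 stands out as blue in treated mouse and dark red in treated spiny mouse samples, and Pfkm and Pgam2 are blue in treated samples of both species.

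Glucose and lactate transporters rose in spiny mouse skin in all 4 cases (28.2% of all genes rose). In mouse skin 2 rose (25.9% of all genes), 1 fell (35.3% of all genes) and 1 was not called. Slc2a1 encodes GLUT1, the main glucose transporter of keratinocytes. Its levels in replicates 1 to 4 were 87.3, 65.0, 75.8 and 89.8 CPM in untreated and 184, 155, 167 and 144 CPM in treated mouse skin. In spiny mouse they were 153, 185, 146 and 117 CPM untreated and 483, 460, 350 and 487 CPM treated. The treated samples were all above the untreated ones in both species. The log2 fold change was 1.03 ± 0.13 (SE) in mouse (edgeR adjusted p = 0.00022) and 1.57 ± 0.15 in spiny mouse (edgeR adjusted p = 6.0e-05).

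Slc2a3 encodes GLUT3, a high-affinity glucose transporter known from neurons and white blood cells. In mouse skin it was at 6.70, 5.94, 5.70 and 7.46 CPM untreated and at 3.72, 3.78, 3.27 and 3.19 CPM treated. The spiny mouse samples were at 5.10, 4.56, 5.24 and 5.21 CPM untreated and at 34.6, 25.2, 49.1 and 34.3 CPM treated. The groups did not overlap in either species, and the directions were opposite. The log2 fold change was -0.89 ± 0.16 in mouse (edgeR adjusted p = 0.0012) and 2.83 ± 0.19 in spiny mouse (edgeR adjusted p = 1.2e-05). The gene lies on mouse chromosome 6 from 122704768 to 122778599 (GRCm39) and on spiny mouse scaffold_4 from 22611028 to 22675588 (AcoCah2). Markers of macrophages and neutrophils moved with it in spiny mouse, where 5 of 6 rose and their sum went from between 360 and 399 to between 671 and 1024 CPM. In mouse 2 of 6 rose and 2 fell, with sums of 279 to 608 and 311 to 384 CPM. The part of these cells in the Slc2a3 levels was not tested.

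Slc16a1 (MCT1) and Slc16a3 (MCT4) carry lactate across the membrane, and MCT4 is known as the export form of glycolytic cells. Slc16a3 was at 15.6, 21.4, 15.7 and 18.8 CPM in untreated and at 35.2, 42.9, 50.1 and 46.6 CPM in treated spiny mouse skin. In mouse skin it was at 40.6, 33.7, 38.4 and 43.3 CPM untreated and at 40.0, 36.4, 39.4 and 35.1 CPM treated. The spiny mouse groups were apart and the mouse groups overlapped. The log2 fold changes were 1.29 ± 0.14 (edgeR adjusted p = 9.2e-05) in spiny mouse and -0.05 ± 0.10 (edgeR adjusted p = 0.68) in mouse. Slc16a1 rose from 176 ± 20.9 to 301 ± 35.9 CPM in spiny mouse (SD, n = 4; log2 fold change 0.78) and from 62.8 ± 12.0 to 88.2 ± 15.7 CPM in mouse (log2 fold change 0.49), where the samples overlapped. The mouse call of Slc16a1 ended with upper-quartile factors (edgeR adjusted p = 0.12), without untreated replicate 4 (edgeR adjusted p = 0.066) and without treated replicate 1 (edgeR adjusted p = 0.081).

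**Figure D2:**
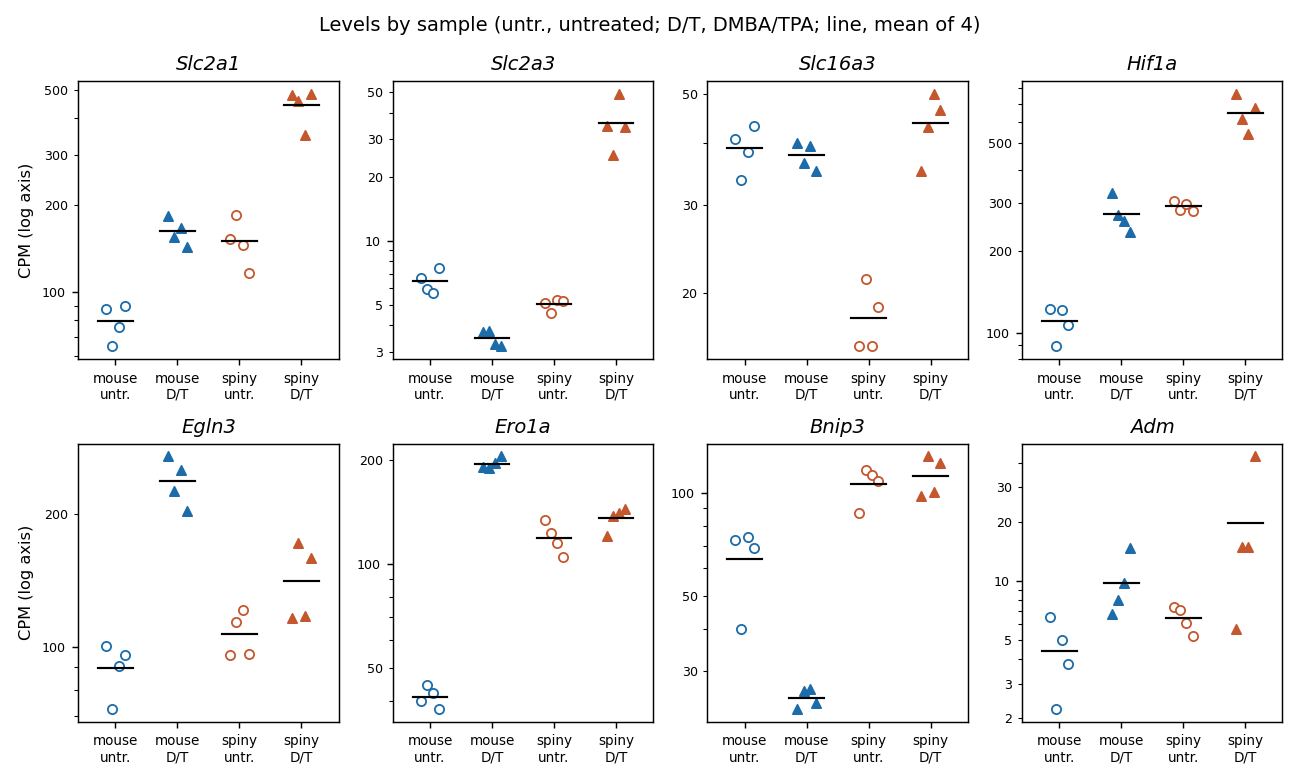
TMM-scaled CPM of 8 genes on log axes, with 1 point for each of the 16 samples and a line at the mean of the 4 samples of a group. Treated spiny mouse samples of Slc2a3 lie between 25.2 and 49.1 CPM and treated mouse samples between 3.19 and 3.78 CPM, and treated mouse samples of Ero1a lie between 189 and 204 CPM against 37.9 to 44.4 CPM untreated.

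In the steps from hexokinase to aldolase, 2 of 9 members rose and 3 fell in mouse (25.9% and 35.3% of all genes). In spiny mouse 2 rose and 5 fell (28.2% and 26.9% of all genes). Hexokinase traps glucose in the cell as its phosphate. Hk2, the inducible hexokinase, rose in spiny mouse from 110 ± 6.21 to 148 ± 24.3 CPM (log2 fold change 0.43, edgeR adjusted p = 0.0089), while Hk1, the housekeeping form, fell from 123 ± 8.96 to 93.9 ± 6.80 CPM (log2 fold change -0.39, edgeR adjusted p = 0.0019). In mouse neither was called by edgeR, while Hk1 was called higher with the DESeq2 test (0.46, adjusted p = 0.012), with DESeq2 size factors (edgeR adjusted p = 0.025) and with no filter (0.50, edgeR adjusted p = 0.021). Untreated mouse replicate 2, the sample with hair follicle markers, had 180 CPM of Hk2 against 83.8, 102 and 109 CPM in the other 3, and treated mouse samples had 128 to 159 CPM. Without that sample the mouse log2 fold change of Hk2 went from 0.21 to 0.57 and was called (edgeR adjusted p = 0.00093), as was that of Hk1, at 0.39 (edgeR adjusted p = 0.024). Hk1 was also called without untreated replicate 4 and without treated replicate 2, with edgeR adjusted p from 0.022 to 0.042 over the 3 fits. Gpi1, the isomerase of the next step, differed little between groups, with means of 276 and 282 CPM in mouse and 329 and 334 CPM in spiny mouse.

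Phosphofructokinase commits sugar to glycolysis, and its 3 isoforms moved apart. Pfkm, the muscle form, was at 559, 628, 438 and 495 CPM in untreated and at 123, 116, 135 and 156 CPM in treated mouse skin. In spiny mouse skin it was at 337, 454, 362 and 491 CPM untreated and at 150, 269, 170 and 162 CPM treated. All treated samples were below all untreated ones, with log2 fold changes of -2.00 ± 0.16 in mouse (edgeR adjusted p = 2.1e-05) and -1.13 ± 0.20 in spiny mouse (edgeR adjusted p = 0.0013). Pfkl, the liver form, was at 46.9, 41.4, 43.9 and 52.1 CPM in untreated and at 103, 85.9, 97.4 and 76.1 CPM in treated mouse skin, a log2 fold change of 0.97 ± 0.12 (edgeR adjusted p = 0.00018). In spiny mouse Pfkl was not called (log2 fold change 0.32, edgeR adjusted p = 0.068), and untreated replicate 2 had 98.6 CPM beside 67.1 to 69.8 CPM in the other 3. Without it the value was 0.47 and called (edgeR adjusted p = 0.0026). Pfkp, the platelet form, rose by a log2 fold change of 0.35 in mouse and 0.48 in spiny mouse. The mouse call of Pfkp was lost without untreated replicate 1, 3 or 4 or treated replicate 1 or 3 (edgeR adjusted p = 0.062 to 0.077). With upper-quartile factors the log2 fold change was 0.14 (edgeR adjusted p = 0.44) and with library size alone 0.10 (edgeR adjusted p = 0.54). Its exons overlap those of Pitrm1 on the other strand in both species, and counting did not use strand.

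Pfkfb3 makes the activator of phosphofructokinase. In mouse it averaged 91.1 ± 12.996 CPM untreated and 55.4 ± 8.63 CPM treated (log2 fold change -0.72, edgeR adjusted p = 0.0021), and in spiny mouse 286 ± 22.5 and 200.5 ± 50.1 CPM (log2 fold change -0.51, edgeR adjusted p = 0.022). It fell in both, with groups apart. The spiny mouse call was lost without untreated replicate 4 (edgeR adjusted p = 0.059) and without treated replicate 3 (edgeR adjusted p = 0.054). Aldoa, the aldolase of muscle and of most other tissues, was the member with the highest CPM in untreated skin. In mouse it was at 2761, 2294, 2062 and 2414 CPM untreated and at 1519, 1454, 1729 and 1658 CPM treated. The spiny mouse levels were 2858, 3607, 3019 and 3370 CPM untreated and 1709, 2632, 2086 and 2030 CPM treated. The fall was alike in size, with log2 fold changes of -0.59 ± 0.17 (edgeR adjusted p = 0.013) and -0.60 ± 0.15 (edgeR adjusted p = 0.0065). The mouse call of Aldoa was lost without untreated replicate 1 (edgeR adjusted p = 0.051) and without treated replicate 2 (edgeR adjusted p = 0.081). Aldoc, the brain form, was under 19 CPM throughout and fell in spiny mouse (log2 fold change -0.44, edgeR adjusted p = 0.038). That call was lost without untreated replicate 1 or 2 or treated replicate 1, 3 or 4 (edgeR adjusted p = 0.053 to 0.094).

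In the steps from triose phosphate to lactate, 4 of 10 members rose and 3 fell in mouse (25.9% and 35.3% of all genes). In spiny mouse 5 rose and 3 fell (28.2% and 26.9% of all genes). Eno1, the enolase found in most tissues, was at 244, 147, 212 and 236 CPM in untreated and at 740, 608, 643 and 576 CPM in treated mouse skin. The spiny mouse samples were at 647, 739, 703 and 569 CPM untreated and at 1311, 1235, 1177 and 1222 CPM treated. The treated samples were above the untreated ones in both, with log2 fold changes of 1.61 ± 0.19 (edgeR adjusted p = 0.00012) and 0.90 ± 0.10 (edgeR adjusted p = 0.00011). Pgam1, the phosphoglycerate mutase outside muscle, rose from 63.0, 33.1, 58.8 and 56.1 CPM to 152, 149, 155 and 131 CPM in mouse (log2 fold change 1.47 ± 0.19, edgeR adjusted p = 0.0002). In spiny mouse it rose from 244, 307, 245 and 235 CPM to 399, 400, 371 and 360 CPM (log2 fold change 0.57 ± 0.10, edgeR adjusted p = 0.00096). Its muscle counterpart Pgam2 went the other way, from 178, 137, 137 and 135 CPM to 36.5, 28.7, 47.0 and 51.1 CPM in mouse (log2 fold change -1.85 ± 0.19, edgeR adjusted p = 6.5e-05). In spiny mouse Pgam2 went from 166, 250, 186 and 221 CPM to 57.8, 131, 95.9 and 87.3 CPM (log2 fold change -1.14 ± 0.23, edgeR adjusted p = 0.0025). No sample of Pgam1 or Pgam2 broke the separation between untreated and treated skin in either species.

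Pkm makes pyruvate and rose in both species, with means of 645 ± 74.6 CPM untreated and 910 ± 81.8 CPM treated in mouse (log2 fold change 0.49), and of 694 ± 60.0 and 997 ± 67.3 CPM in spiny mouse (log2 fold change 0.52). Pgk1, an ATP-yielding step, rose by a log2 fold change of 0.67 ± 0.13 in mouse (edgeR adjusted p = 0.0021) and of 0.30 ± 0.11 in spiny mouse (edgeR adjusted p = 0.043), where the call held only without untreated replicate 2 or treated replicate 3 and ended in the other 6 fits that left out a sample (edgeR adjusted p = 0.053 to 0.12). The mouse call of Pkm ended with upper-quartile factors (edgeR adjusted p = 0.085). Gapdh, often used as a reference gene, and Tpi1 were not called: Gapdh had a mean of 888 CPM in both mouse groups and of 2640 and 2473 CPM in spiny mouse. Gapdh, Eno1, Pgk1, Pgam1 and Ldha have near-identical processed copies in the mouse genome, and read pairs that map to several places were not counted, so their absolute levels are uncertain.

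Lactate dehydrogenase A favours the making of lactate. Ldha was at 712, 482, 610 and 635 CPM in untreated and at 696, 691, 779 and 672 CPM in treated mouse skin, and at 644, 747, 627 and 689 CPM in untreated and at 1002, 1034, 919 and 960 CPM in treated spiny mouse skin. The mouse groups overlapped (log2 fold change 0.22, edgeR adjusted p = 0.25, but called with the DESeq2 test at 0.32, adjusted p = 0.023) and the spiny mouse groups did not (log2 fold change 0.53 ± 0.09, edgeR adjusted p = 0.00086). Ldhb fell by nearly the same amount in both species. Mouse levels were 96.9, 77.9, 83.8 and 88.1 CPM untreated and 45.3, 40.8, 43.7 and 46.7 CPM treated. Spiny mouse levels were 58.4, 62.0, 62.4 and 57.8 CPM untreated and 25.7, 31.5, 32.7 and 31.2 CPM treated, with no overlap in either species. The log2 fold changes were -0.98 ± 0.10 (edgeR adjusted p = 5.2e-05) and -0.99 ± 0.08 (edgeR adjusted p = 3.3e-05). Pdk1, a pyruvate dehydrogenase kinase and a known hypoxia target, fell as well. Its means were 90.8 ± 9.47 CPM untreated and 71.0 ± 5.07 CPM treated in mouse, and 89.7 ± 5.53 and 62.7 ± 3.43 CPM in spiny mouse. The mouse call of Pdk1 was lost without untreated replicate 1 and without treated replicates 2, 3 and 4, each left out singly (edgeR adjusted p = 0.052 to 0.13).

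Hif1a rose in both species and Epas1 was called in neither. In mouse skin Hif1a was at 122, 88.9, 122 and 107 CPM untreated and at 328, 271, 258 and 235 CPM treated. In spiny mouse skin it was at 305, 284, 299 and 282 CPM untreated and at 763, 617, 542 and 674 CPM treated. No untreated sample reached a treated one, and the log2 fold changes were 1.31 ± 0.15 (edgeR adjusted p = 0.00012) and 1.15 ± 0.11 (edgeR adjusted p = 4.8e-05). Epas1, the HIF2 subunit known from endothelium, had means of 140 and 136 CPM in mouse and 253 and 281 CPM in spiny mouse. Endothelial markers fell in 4 of 7 cases in mouse, with sums of 170 to 188 CPM untreated and 119 to 162 CPM treated, and in 2 of 7 cases in spiny mouse. Their part in the Epas1 levels was not tested.

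The prolyl hydroxylase Egln3, itself a known HIF target, was at 101, 72.4, 90.8 and 95.8 CPM in untreated and at 270, 225, 251 and 203 CPM in treated mouse skin. The spiny mouse samples were at 96.0, 114, 121 and 96.2 CPM untreated and at 116, 172, 118 and 159 CPM treated. The mouse groups were apart, with a log2 fold change of 1.40 ± 0.14 (edgeR adjusted p = 5.9e-05), and the spiny mouse groups overlapped, with one of 0.40 ± 0.14 (edgeR adjusted p = 0.039). The spiny mouse call was lost without untreated replicate 1, 2 or 4 or treated replicate 2 or 4 (edgeR adjusted p = 0.054 to 0.101). Egln1, the hydroxylase that sets HIF1A levels in most cells, was called in neither species, with means of 121 and 119 CPM in mouse and of 212 and 179 CPM in spiny mouse. In spiny mouse it was called lower without untreated replicate 1 or without treated replicate 2 (edgeR adjusted p = 0.027 and 0.032).

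Among the 9 hypoxia response genes, 2 rose and 3 fell in mouse (25.9% and 35.3% of all genes). In spiny mouse 1 rose and 2 fell (28.2% and 26.9% of all genes). The largest fold change of the 36 members in mouse was that of Ero1a, the oxidase that helps to form disulfide bonds in secreted proteins. It was at 40.1, 44.4, 42.3 and 37.9 CPM in untreated and at 191, 189, 195 and 204 CPM in treated mouse skin, and at 134, 122, 114 and 105 CPM in untreated and at 121, 137, 140 and 144 CPM in treated spiny mouse skin. The mouse groups lay far apart and the spiny mouse groups overlapped. The log2 fold change was 2.24 ± 0.10 in mouse (edgeR adjusted p = 1.7e-06) and 0.19 ± 0.09 in spiny mouse (edgeR adjusted p = 0.093), where leaving out untreated replicate 1 or treated replicate 1 made it a call (0.24 each, edgeR adjusted p = 0.034 and 0.045). Growing hair follicle markers rose along with it in treated mouse skin, where 8 of 11 were called higher, and fell in 4 of 10 cases in spiny mouse skin. In untreated mouse replicate 2, whose hair follicle markers summed to 2131 CPM, Ero1a was at 44.4 CPM, the highest of the 4 untreated samples. The part of the hair follicle in the Ero1a levels was not tested.

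Bnip3, which promotes the removal of mitochondria and is a known hypoxia target, fell in mouse skin. It was at 72.6, 40.0, 74.1 and 68.7 CPM untreated and at 23.3, 26.3, 26.6 and 24.3 CPM treated, and replicate 2 was again the untreated sample that stood apart. In spiny mouse skin it was at 87.4, 116, 113 and 108 CPM untreated and at 97.8, 128, 100 and 122 CPM treated. The log2 fold change was -1.35 ± 0.18 in mouse (edgeR adjusted p = 0.00029) and 0.08 ± 0.12 in spiny mouse (edgeR adjusted p = 0.6). In the mouse annotation 504 bases of the exons of Bnip3 overlap Gm45507 on the other strand, and pairs assigned to more than 1 gene were not counted.

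Adm encodes adrenomedullin, a vasodilator peptide. It was at 6.53, 2.23, 5.01 and 3.77 CPM in untreated and at 6.77, 7.95, 9.70 and 14.7 CPM in treated mouse skin. The spiny mouse samples were at 7.35, 7.14, 6.12 and 5.25 CPM untreated and at 5.68, 14.9, 14.9 and 43.0 CPM treated. Treated spiny mouse replicate 1 was within the untreated range and replicate 4 was far above the rest. The log2 fold changes were 1.15 ± 0.34 in mouse (edgeR adjusted p = 0.016) and 1.60 ± 0.50 in spiny mouse (edgeR adjusted p = 0.023). The spiny mouse call was lost without untreated replicate 3 (edgeR adjusted p = 0.0502) or replicate 4 (edgeR adjusted p = 0.059).

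The collagen prolyl hydroxylases P4ha1 and P4ha2 shape collagen before it is secreted. P4ha1 fell in mouse from 45.8 ± 4.84 to 35.1 ± 1.96 CPM (log2 fold change -0.39, edgeR adjusted p = 0.0087) and was at 48.0 ± 5.22 and 47.2 ± 5.95 CPM in spiny mouse. That mouse call was lost without treated replicate 2 (edgeR adjusted p = 0.062). P4ha2 fell in both species, with log2 fold changes of -0.29 and -0.44, and the mouse call was lost in all 8 fits that left out a sample except the one without untreated replicate 1 (edgeR adjusted p = 0.065 to 0.15). Ankrd37, an ankyrin repeat protein under 3 CPM in every sample, fell in spiny mouse (log2 fold change -0.77, edgeR adjusted p = 0.017), a call lost without treated replicate 2 (edgeR adjusted p = 0.051). Vegfa, the main growth factor of vessels, had means of 51.1 and 43.6 CPM in mouse and of 68.6 and 71.2 CPM in spiny mouse. Ndrg1, a stress-induced gene, had means of 118 and 120 CPM, and of 268 and 272 CPM. Ddit4, an inhibitor of mTOR signalling, had means of 92.6 and 89.4 CPM, and of 182 and 220 CPM. For these 3 genes the untreated and treated samples overlapped in both species, and Ddit4 was called in spiny mouse without untreated replicate 2 (log2 fold change 0.40, edgeR adjusted p = 0.018).

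The treatment effect differed between the species for 11 of the 36 members (edgeR, species by treatment term, adjusted p under 0.05), beside 46.1% of the 13656 genes compared. The spiny mouse minus mouse difference was positive for 5 (21.4% of all genes) and negative for 6 (24.7% of all genes). The median difference of the members was 0.01, against -0.03 over all genes. It was positive for Slc2a3 (difference of log2 fold changes 3.72 ± 0.24, edgeR adjusted p = 4.5e-08), Bnip3 (1.42 ± 0.23, edgeR adjusted p = 0.00015), Slc16a3 (1.34 ± 0.17, edgeR adjusted p = 2.4e-05), Pfkm (0.87 ± 0.26, edgeR adjusted p = 0.013) and Slc2a1 (0.54 ± 0.21, edgeR adjusted p = 0.046). Of these, the positive value of Pfkm is a smaller fall and that of Bnip3 the lack of the mouse fall. The Slc2a1 difference held only without mouse untreated replicate 2 or treated replicate 1, or spiny mouse untreated replicate 2 or treated replicate 3, and was lost in the other 12 of 16 fits that left out a sample (edgeR adjusted p = 0.067 to 0.13). It was also lost with the DESeq2 test (adjusted p = 0.078), with DESeq2 size factors (edgeR adjusted p = 0.096) and with no filter (edgeR adjusted p = 0.14). The Pfkm difference was lost without treated mouse replicate 2 (edgeR adjusted p = 0.052).

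The difference was negative for Ero1a (-2.05 ± 0.12, edgeR adjusted p = 2.7e-08), Egln3 (-0.99 ± 0.21, edgeR adjusted p = 0.0011), Pgam1 (-0.90 ± 0.22, edgeR adjusted p = 0.0035), Hk1 (-0.75 ± 0.17, edgeR adjusted p = 0.002), Eno1 (-0.72 ± 0.21, edgeR adjusted p = 0.011) and Pfkl (-0.66 ± 0.19, edgeR adjusted p = 0.0098). For 5 of them the log2 fold change was positive in both species and lower in spiny mouse, and for Hk1 the signs were opposite, with log2 fold changes of 0.36 in mouse (not called) and -0.39 in spiny mouse. These 6 kept their call in each of the 16 fits that left out a sample. For Hif1a the difference was -0.16 ± 0.19, for Ldhb -0.01 ± 0.12, for Aldoa -0.02 ± 0.21 and for Pkm 0.03 ± 0.16, none of them called. The direction of the calls over all genes moved with the scaling: 46.4% of called differences were positive, against 36.9% (DESeq2 size factors), 61.2% (upper-quartile factors) and 66.2% (library size alone). The members then split into 4 positive and 8 negative, 9 positive and 6 negative, and again 9 positive and 6 negative. Tpi1, Pgam2, Ldha and P4ha1 were the members called positive with upper-quartile factors and library size alone and not in the report's fit.

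**Figure D3:**
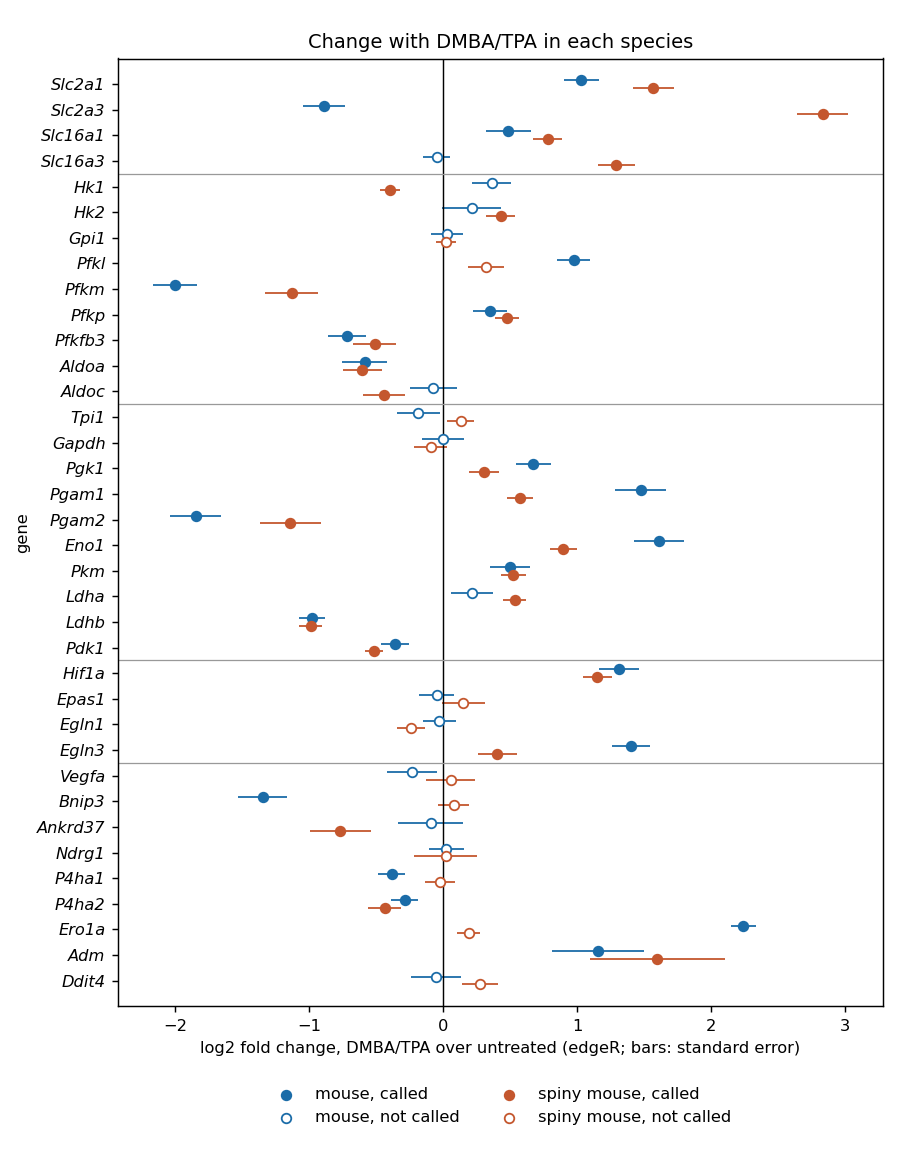
Points give the edgeR log2 fold change of DMBA/TPA over untreated skin for the 36 genes in mouse (blue) and spiny mouse (orange), bars the standard error, and filled points an adjusted p under 0.05. The points lie far apart for Slc2a3 (-0.89 and 2.83) and Ero1a (2.24 and 0.19), and close together for Ldhb (-0.98 and -0.99) and Aldoa (-0.59 and -0.60).

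Isoform shares compare the members of a step within a sample, as counts per kb of the deposited gene length, and do not depend on scaling between samples. In 13 of 18 comparisons (9 shares in each species) the untreated and treated samples did not overlap. They are not independent, as the Pfkm and Pfkp shares have the same total. By level, which is another measure, the groups did not overlap for 58.6% of all genes in mouse and 50.9% in spiny mouse. Each of the 13 has the smallest p that 4 samples against 4 allow, an exact two-sided permutation p of 0.0286, or 0.048 adjusted over 22 tests. The share of Ldha among Ldha and Ldhb rose, with means of 76.8 ± 1.49% untreated and 88.4 ± 0.978% treated in mouse, and of 88.0 ± 0.896% and 95.5 ± 0.579% in spiny mouse. The share of Pfkm among the 3 phosphofructokinases fell, with means of 91.4 ± 0.820% and 62.6 ± 5.06% in mouse, and of 70.7 ± 3.92% and 45.2 ± 5.92% in spiny mouse. That of Pfkp rose, with means of 4.50 ± 0.151% and 15.8 ± 1.95% in mouse, and of 15.3 ± 3.05% and 30.1 ± 4.60% in spiny mouse. Even in treated skin Pfkm thus remained the isoform with the highest mean share in both species, on this scale. In mouse that rank depends on the division by length. In CPM the treated mouse means were 132.5 for Pfkm and 133.4 for Pfkp, and the treated spiny mouse means 188 and 160.

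The share of Pgam2 among Pgam1 and Pgam2 fell, with means of 86.8 ± 2.78% untreated and 39.3 ± 7.20% treated in mouse, and of 61.4 ± 3.24% and 32.3 ± 7.16% in spiny mouse. The share of Slc2a3 among Slc2a1 and Slc2a3 fell in mouse (3.80 ± 0.327% untreated, 1.03 ± 0.103% treated). In spiny mouse that share rose (1.58 ± 0.366% and 3.73 ± 1.61%). Within this pair GLUT1 transcripts were the majority in all 16 samples, and other glucose transporters were not part of the share. Hk2 rose from 46.4 ± 2.85% to 60.2 ± 3.96% of the hexokinase pair in spiny mouse and overlapped in mouse (69.2 ± 7.54% and 68.2 ± 0.850%). Slc16a3 fell from 34.4 ± 3.42% to 26.5 ± 2.55% of the lactate carriers in mouse, and overlapped in spiny mouse (11.025 ± 1.96% and 15.1 ± 3.23%). The share of Aldoc was under 1% in every sample, rose in mouse and overlapped in spiny mouse, and that of P4ha2 overlapped in both.

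**Figure D4:**
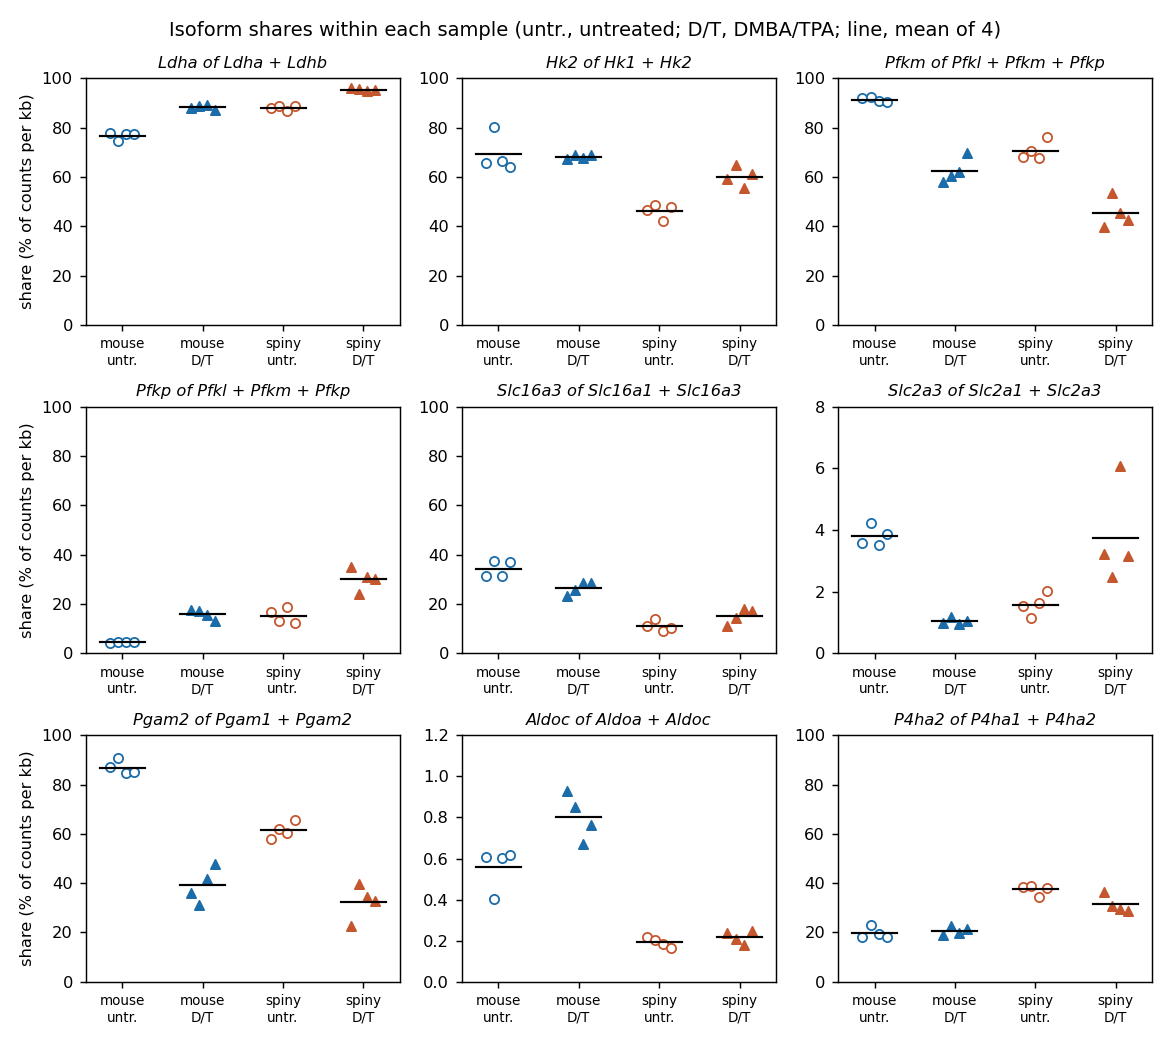
Each panel gives the share (in percent, on counts per kb) of 1 isoform among those of its step, with 1 point per sample and a line at the mean of the 4 samples of a group. Axes start at 0 and end at 100, except for Slc2a3 (ending at 8) and Aldoc (ending at 1.2). The Ldha share rises and the Pfkm and Pgam2 shares fall with treatment in both species, without overlap.

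Summed over isoforms, per kb, the phosphofructokinase transcripts of treated mouse skin were 36.5% of the untreated mean, at 57.4 to 67.0 against 144 to 203 CPM per kb. In spiny mouse they were 70.7% of it, and the samples overlapped. Phosphoglycerate mutase was at 60.9% in mouse and 84.9% in spiny mouse, again apart in mouse and overlapping in spiny mouse. Aldolase was at 66.9% and 65.8%, apart in both. The gains of Pfkl, Pfkp and Pgam1 were therefore smaller, per kb, than the losses of Pfkm and Pgam2. The sums rest on the deposited exon lengths, in mouse 13401 bases for Pfkp, 6675 for Pfkl and 3340 for Pfkm. In CPM the Pfkm loss was still larger than the Pfkl and Pfkp gains in both species. Mouse means went from 530 to 132.5, from 46.1 to 90.7 and from 104.5 to 133.4 CPM. Spiny mouse means went from 411 to 188, from 76.1 to 94.9 and from 115 to 160 CPM. Without the lengths, mean Pgam1 rose from 52.8 to 147 CPM and Pgam2 fell from 147 to 40.8 CPM in mouse. In spiny mouse these 2 means went from 258 to 382 and from 206 to 93.1 CPM, where the gain was the larger. The uncertain absolute levels of mouse Pgam1 and Ldha carry over to the sums and shares. Hexokinase sums overlapped in both species (119.8% and 103.1% of untreated), and lactate dehydrogenase was at 101.3% in mouse and, with groups apart, at 133.4% in spiny mouse. These sums were computed after the values were seen and were given no test.

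The muscle isoforms fell along with the muscle markers between untreated and treated skin. In untreated mouse skin the summed muscle markers of replicates 1 to 4 were 17522, 22546, 15429 and 16423 CPM, and in treated mouse skin 3918, 3538, 4404 and 4775 CPM. In untreated mouse skin replicate 2 had the highest markers and the highest Pfkm, but not the highest Pgam2. The order of the treated samples by Pfkm (123, 116, 135 and 156 CPM) and by Pgam2 (36.5, 28.7, 47.0 and 51.1 CPM) was that of the markers. The untreated spiny mouse samples did not keep that order: markers were at 22785, 22729, 21618 and 26612 CPM, while Pfkm (337 CPM) and Pgam2 (166 CPM) were lowest in replicate 1 and Pgam2 was highest in replicate 2 (250.1 CPM). In treated spiny mouse skin replicate 2 had the highest markers (14670 CPM) and the highest Pfkm, Pgam2 and Aldoa, and replicate 1 the lowest markers (7107 CPM) and the lowest of all 3.

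Relative to the mean log2 level of the muscle markers, Pfkm was at 0.09 ± 0.07 untreated and 0.21 ± 0.05 treated in mouse, and at -0.33 ± 0.24 and -0.29 ± 0.25 in spiny mouse, on the log2 scale. Pgam2 was at -1.76 ± 0.27 and -1.51 ± 0.23 in mouse, and at -1.33 ± 0.27 and -1.32 ± 0.12 in spiny mouse. In none of the 4 comparisons were the groups apart (exact two-sided permutation test, adjusted p between 0.12 and 0.99). The marker mean includes Tnnc2 in mouse and Mylpf in spiny mouse, which were near zero and had little room to fall. Such a gene makes the mean fall less and lowers the differences, and a mean without it was not computed. The differences were 0.12 and 0.24 in mouse and 0.04 and 0.01 in spiny mouse, beside log2 fold changes of -2.00 and -1.85, and of -1.13 and -1.14, without the markers. The mouse groups of Pfkm were apart with a prior count of 0.5 in place of 2 (difference 0.20) and without untreated replicate 1 (difference 0.15).

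**Figure D5:**
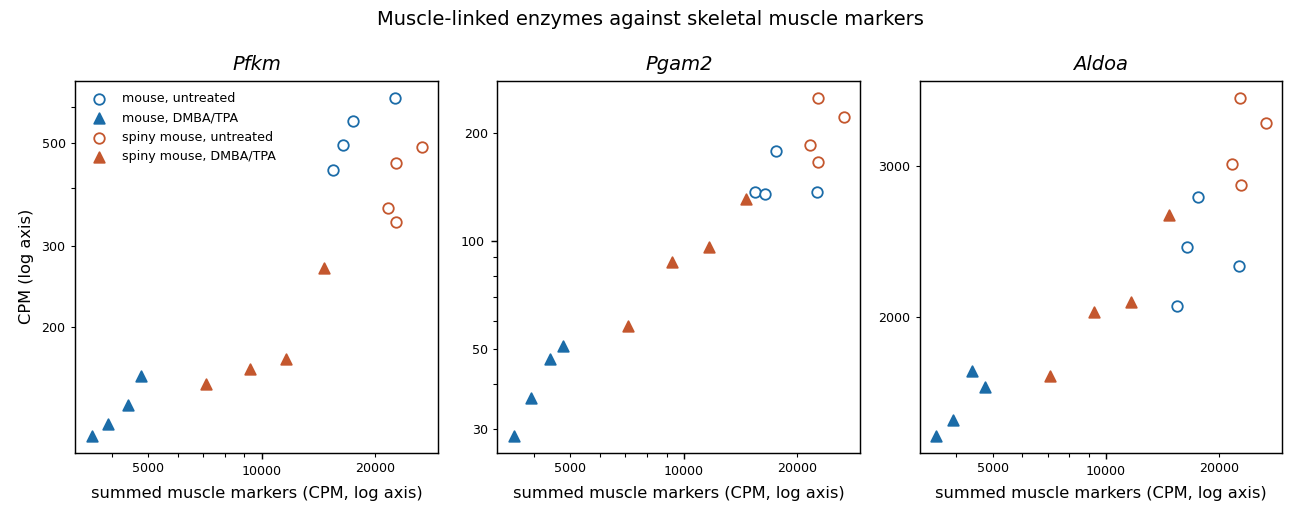
CPM of Pfkm, Pgam2 and Aldoa against the summed CPM of 15 skeletal muscle markers, both on log axes, with 1 point per sample. Treated samples of both species lie to the lower left, at 3538 to 4775 CPM of markers in mouse and 7107 to 14670 CPM in spiny mouse.

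The spread between replicates differed among members. The median coefficient of variation over the 36 genes was 14.6% in untreated and 8.84% in treated mouse skin, and 11.9% and 13% in spiny mouse skin. Adm had the highest in untreated mouse (41.7%), treated mouse (35.8%) and treated spiny mouse skin (82.3%), and Ero1a the lowest in treated mouse skin (3.56%). Untreated mouse replicate 2 was the lowest of its 4 samples for 21 of the 36 genes, among them Pgam1, Eno1, Bnip3, Adm and Ddit4. Without it 23 mouse members were called, 14 higher and 9 lower, beside 13944 of the 20009 genes tested in that fit. Of those called genes 48.1% were higher. Treated spiny mouse replicate 1 was the lowest of its group for 20 genes and replicate 2 the highest for 17.

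Other genes of these pathways were counted from lists that hold no member. Of 30 other glycolysis genes tested in mouse 7 rose and 19 fell, and of 32 tested in spiny mouse 3 rose and 20 fell, with median log2 fold changes of -0.71 and -0.39. Over all genes 25.9% rose and 35.3% fell in mouse, and 28.2% rose and 26.9% fell in spiny mouse. The list holds genes known for their use in muscle, among them Fbp2 and Eno3, both of which fell in both species. All 14 tested muscle markers fell as well, and the part of muscle in the list's counts was not tested. The falls named by rule were Fbp2 (-2.46), the muscle fructose bisphosphatase, Pdk4 (-2.41), a pyruvate dehydrogenase kinase of fasting, and Slc2a12 (-2.20), a glucose transporter, in mouse. In spiny mouse they were Plod2 (-2.38), a collagen lysyl hydroxylase of the hypoxia list, Slc2a12 (-2.24) and Eno3 (-1.39), the muscle enolase. The rises in mouse were Fbp1 (4.12), a gluconeogenic phosphatase, Pgm2 (1.97), a phosphopentomutase, and Plod2 (1.87). Untreated Fbp1 was at 5.32, 9.95, 0.877 and 0.364 CPM, and without untreated replicate 2 its log2 fold change was 5.11.

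Plod2 thus moved in opposite directions, with 3.21, 6.98, 5.23 and 2.55 CPM untreated and 14.6, 18.6, 16.1 and 16.7 CPM treated in mouse, and 10.7, 19.3, 24.5 and 14.5 CPM untreated and 2.05, 4.39, 3.91 and 2.83 CPM treated in spiny mouse. Rises in spiny mouse were those of Hk3 (1.45), the hexokinase of white blood cells, and Car9 (1.03), a carbonic anhydrase and classic hypoxia target. The Hk3 call was lost without untreated replicate 1 (edgeR adjusted p = 0.054) or 4 (edgeR adjusted p = 0.055), and without treated replicate 3 its value was 0.86. Of the 35 other hypoxia response genes, 15 rose and 7 fell in mouse (median 0.29), beside 25.9% and 35.3% of all genes. In spiny mouse 10 rose and 9 fell (median 0.01), beside 28.2% and 26.9% of all genes. The treatment effect differed between the species for 13 of 29 other glycolysis genes, 7 with a positive and 6 with a negative difference. It differed for 11 of the 35 other hypoxia response genes, 3 positive and 8 negative. Over all genes compared it differed for 46.1%, positive for 21.4% and negative for 24.7%.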

How the data were processed

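Per the labels, polyadenylated RNA of skin was sequenced from stranded mRNA libraries. HISAT2 and Trim Galore are named in the submitters' processing notes, without versions. Per the file headers, the authors deposited raw counts from featureCounts 2.0.3, of read pairs with both ends mapped, with no strand option and without pairs that map to several places or genes. The mouse table uses GRCm39 with Ensembl 108 and the spiny mouse table AcoCah2. Untreated columns carry another code than their titles and were matched by species letter and replicate number. The series' design text describes another experiment, and the sample labels were followed.

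Symbols came from GENCODE M39 (56236 of 56980 identifiers). Counts were filtered (filterByExpr), scaled by TMM and tested by edgeR 4.0.16 quasi-likelihood in R 4.3.3, in each species and, for the difference, over the shared symbols with species, treatment and their interaction. Benjamini-Hochberg adjustment ran over all genes and calls used 0.05. Lengths in counts per kb are the deposited union exon lengths, which differ between species, so levels per kb were not compared between them. Isoform shares and values relative to muscle markers (prior count 2) were tested exactly with scipy 1.17.1. The genes and lists were chosen with earlier results of these data known. All 36 members could be named, and of the other pathway genes the 3 largest rises and falls per species among called genes whose mean log2 CPM reached 1. Of these, 1 rise in spiny mouse is not reported here. Alternatives were the DESeq2 1.42.0 test and size factors, upper-quartile factors, library size alone, no filter, a mean of at least 10 counts, the replicate number as a block, and leaving out each sample. Shares were also computed without dividing by length, and muscle values with another prior count and a summed marker level. The fits were tested on simulated data. Of the other marker lists, adipocyte markers summed to 192 to 832 CPM in untreated and 220 to 383 CPM in treated mouse skin (2 of 5 fell) and to 1151 to 1303 and 575 to 849 CPM in spiny mouse skin (3 fell), and fibroblast markers to 6913 to 11077 and 4652 to 7020 CPM in mouse (2 of 5 fell) and to 3025 to 4862 and 1846 to 2704 CPM in spiny mouse (1 rose, 2 fell).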

Additional observations from a re-analysis of the deposited data

Results flagged for a closer look

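In 188 groups of 4 samples, 12 had a sample set apart by Dixon's criterion, where chance gives about 1 in 20, or 9.4 groups. In untreated mouse replicate 1, Pgam2 was at 178 CPM (135 to 137 CPM in the others) and Pkm at 756 CPM (599 to 618 CPM), and the Pfkp share was lowest at 4.28% (4.55 to 4.60%). Untreated mouse replicate 2 was apart in 4 values. Bnip3 was at 40.0 CPM (68.7 to 74.1 CPM), the Ldha share at 74.6% (77.4 to 77.7%), the Hk2 share at 80.4% (64.1 to 66.6%) and the Aldoc share at 0.404% (0.605 to 0.620%). In untreated spiny mouse replicate 2, Pfkl was at 98.6 CPM (67.1 to 69.8 CPM), Pgam1 at 307 CPM (235 to 245 CPM) and P4ha1 at 55.8 CPM (44.9 to 46.2 CPM). Ankrd37 was at 1.43 CPM in treated spiny mouse replicate 3 (0.955 to 0.964 CPM). Pfkm relative to muscle markers was 0.29 in treated mouse replicate 4 (0.18 to 0.19).

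The species by treatment term differed for 11 genes (edgeR adjusted p under 0.05). The spiny mouse minus mouse log2 fold change was 0.54 for Slc2a1, 3.72 for Slc2a3, 1.34 for Slc16a3, 0.87 for Pfkm and 1.42 for Bnip3. It was -0.75 for Hk1, -0.66 for Pfkl, -0.90 for Pgam1, -0.72 for Eno1, -0.99 for Egln3 and -2.05 for Ero1a.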

How the results depend on the processing

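All members but Ankrd37 were above 2 CPM in each library, and no comparison of depth with sample number was made. Values below are log2 fold changes (or their species difference) of genes that were not called in the report and changed sign, and the cause of each change was not tested. With the DESeq2 test the mouse values that changed sign were Slc16a3 0.0473, Aldoc 0.0273, Gapdh 0.0943, Epas1 0.0446, Egln1 0.0699, Ankrd37 0.0046 and Ddit4 0.0499, and the difference for Pkm was -0.0751. With DESeq2 size factors they were Slc16a3 0.0478, Aldoc 0.0278, Gapdh 0.0943, Epas1 0.0445, Egln1 0.0702, Ankrd37 0.0042 and Ddit4 0.05, and the difference for Pkm -0.0752. With upper-quartile factors they were Hk2 -0.0147, Gpi1 -0.1775 and Ndrg1 -0.1744 in mouse and Gpi1 -0.0202 and Ndrg1 -0.0183 in spiny mouse. The differences were then Gpi1 0.1573, Aldoa 0.146, Gapdh 0.071, Ldhb 0.1493, Pdk1 0.0015, Ndrg1 0.1561 and P4ha2 0.02. With library size alone they were Hk2 -0.0465, Gpi1 -0.2116, Ldha -0.0156 and Ndrg1 -0.2089 in mouse. The differences were then Gpi1 0.2139, Aldoa 0.2006, Gapdh 0.1271, Ldhb 0.2064, Pdk1 0.0572, Hif1a 0.0582, Egln1 0.0022, Ndrg1 0.2191 and P4ha2 0.0776. With no filter they were Slc16a3 0.0945, Aldoc 0.0705, Gapdh 0.1418, Epas1 0.0971, Egln1 0.1156, Ankrd37 0.0528 and Ddit4 0.0921 in mouse, and differences of -0.0069 for Pfkp and -0.1032 for Pkm. With a mean of at least 10 counts Gapdh was 0.0029 in mouse. With a summed marker level Pgam2 relative to muscle was -0.005 in spiny mouse.

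Calls that ended (edgeR unless named, adjusted p in brackets) were, in mouse, P4ha2 with the DESeq2 test (0.12), P4ha2 (0.13) and Pdk1 (0.056) with DESeq2 size factors, and Slc16a1 (0.12), Pfkp (0.44) and Pkm (0.085) with upper-quartile factors. Library size alone ended Slc16a1 (0.16), Pfkp (0.54) and Pkm (0.11), and no filter ended Aldoa (0.078), Pdk1 (0.21), P4ha1 (0.13) and P4ha2 (0.39). In spiny mouse they were Pgk1 (0.071) and Egln3 (0.055) with upper-quartile factors and Pgk1 (0.055) with library size alone. Calls that an alternative made were, in mouse, Slc16a3 and Tpi1 lower with upper-quartile factors (0.026 and 0.035) and library size alone (0.015 and 0.024), and Egln1 lower with library size alone (0.042). In spiny mouse they were Pfkl (0.046) and Egln1 (0.046) with the DESeq2 test and Egln1 (0.046) with upper-quartile factors. For the difference they were Pgk1 with the DESeq2 test (0.0099), DESeq2 size factors (0.029) and no filter (0.031), and Ankrd37 with DESeq2 size factors (0.049).

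Among the counts, 6 members were called lower in mouse with no filter (10 in the report), and 9 differences were positive under upper-quartile factors and 9 under library size alone (5 in the report). With a prior count of 0.5, 1 of the 4 values relative to muscle markers was apart. Leaving out 1 sample gave 6 (without treated mouse replicate 2) to 9 members lower in mouse, 3 (without treated mouse replicate 2) to 7 positive differences, and 0 to 1 values relative to muscle (1 without untreated mouse replicate 1).

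Same-numbered samples did not deviate together (mean correlation 0.009 in mouse and -0.355 in spiny mouse, with 0 of 4 samples matching their own number best in each). With 4 samples per group this cannot exclude that same-numbered samples are related, and the labels do not say. With the replicate block 11246 mouse genes, 7418 spiny mouse genes and 5723 differences were called, and 19, 24 and 11 members. The block ended the calls of mouse Pfkp (0.058), Aldoa (0.073) and P4ha2 (0.077), spiny mouse Egln3 (0.055) and Adm (0.092) and the Slc2a1 difference (0.064), and made those of spiny mouse Pfkl (0.013) and Egln1 (0.0498) and the Pgam2 difference (0.045). Gapdh was then 0.0061 in mouse and Ndrg1 -0.0127 in spiny mouse.

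When each sample was left out in turn, values that changed sign ranged as follows. In mouse Slc16a3 ranged from -0.0538 to 0.0611, Aldoc from -0.1236 to 0.0655, Gapdh from -0.0349 to 0.1227, Epas1 from -0.0892 to 0.1042, Egln1 from -0.0492 to 0.101, Vegfa from -0.3115 to 0.0544, Ankrd37 from -0.188 to 0.1045 and Ddit4 from -0.1314 to 0.0968. In spiny mouse Gpi1 ranged from -0.0097 to 0.0559, Vegfa from -0.0461 to 0.2112, Bnip3 from -0.0138 to 0.1387, Ndrg1 from -0.2093 to 0.1676 and P4ha1 from -0.0872 to 0.0548. The difference ranged from -0.1464 to 0.3041 for Hk2, -0.129 to 0.0287 for Gpi1, -0.0619 to 0.2056 for Pfkp, -0.1501 to 0.0744 for Aldoa, -0.0843 to 0.0892 for Pkm, -0.1423 to 0.0605 for Ldhb, -0.0009 to 0.4439 for Vegfa, -0.2309 to 0.146 for Ndrg1 and -0.2668 to 0.7503 for Adm. The change in the mouse Hk2 share ranged from -2.689 to 2.725 percentage points. Relative to muscle markers, spiny mouse Pfkm ranged from -0.058 to 0.15 and Pgam2 from -0.097 to 0.118.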
